A study of Mus musculus with 72 samples.

Results

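The genes described here are the mouse Toll-like receptor genes, measured in the blood of male C57BL/6 mice after neutron or x-ray irradiation. The members were chosen by gene name as Tlr1 to Tlr9 and Tlr13, which gave 10 genes of the 31093 gene names on the array, and each was represented by its brightest probe. Mice were 8 to 10 weeks old at whole-body exposure, and each of the 72 arrays held the globin-reduced RNA from cardiac-puncture blood of 1 mouse. The exposures were 0.25 or 1 Gy from an accelerator neutron source whose spectrum was designed to resemble that of a fission weapon, or 1 or 4 Gy of x-rays. The groups were control mice at day 1 (n = 5), day 3 (n = 5) and day 7 (n = 6), 0.25 Gy neutrons at day 1 (n = 6), day 3 (n = 6) and day 7 (n = 5), 1 Gy neutrons at day 1 (n = 6) and day 7 (n = 6), 1 Gy x-rays at day 1 (n = 6), day 3 (n = 5) and day 7 (n = 5), and x-rays of 4 Gy at day 1 (n = 5) and day 7 (n = 6). Controls were handled as sham-irradiated animals per the study's methods. The reference for an irradiated group was always the controls of its own day, so comparisons within a day share those control mice.

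Toll-like receptors are membrane proteins of innate immunity that recognise conserved parts of microbes. Tlr1, Tlr2, Tlr4, Tlr5 and Tlr6 act mainly at the cell surface on lipopeptides, lipopolysaccharide and flagellin, whereas Tlr3, Tlr7, Tlr8, Tlr9 and Tlr13 sense nucleic acids inside endosomes. Most signal through the adaptor Myd88 and the Irak kinases to NF-kappaB and interferon regulatory factors, and in blood they are carried by neutrophils, monocytes, dendritic cells and B cells.

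The 10 genes had 12 probes, each 60 bases long. The starts of the probes on which the results turn are given because 1 of them begins with a run of alternating pyrimidines. The first 30 bases of each are printed in the orientation of the array design, and capitals mark the alternating T and C repeat.
Tlr1: caagcatggacttttttgggcaaacctaag
Tlr4: ttgagaacattttggggaggaagaaaggtc
Tlr7: TCTCTCTCTCTgatactgaactgtaccaga
Tlr7 second probe: cataaatgaaggtctgaatttttcctaaca
Tlr9: ctggttcccgagttgctctgcctgccttgc
The files placed these probes on the mm9 build, for Tlr1 at chr5:65316115-65316174, for Tlr4 at chr4:66503470-66503529 and for Tlr9 at chr9:106128979-106129038. The brightest Tlr7 probe lies at chrX:163742863-163742922 and the second at chrX:163743146-163743205, with starts 283 bases apart on the same transcript. Among these 5 probes, that for Tlr9 holds the most pyrimidines, 40 of its 60 bases, and the brightest Tlr7 probe alone contains the repeat.

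Levels are log2 intensities centred on the median of the detected probes of each array, so a difference of 1 is a change of 2-fold relative to that median. A gene was called differentially expressed at p below 0.001 and a false discovery rate below 0.05 over all 10863 genes that passed a detection filter and a 1.5-fold variation filter. Of the 10 members, 7 were detected (Tlr1, Tlr2, Tlr4, Tlr6, Tlr7, Tlr9 and Tlr13) and 6 were tested in the main fits. Tlr6 varied too little for the second filter and was fitted beside the others as an added probe, as was the second Tlr7 probe. The probes named Tlr3, Tlr5 and Tlr8 were not well above background on most arrays.

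Blood cell markers were present throughout, with 9 to 11 of 11 neutrophil markers, 11 of 11 monocyte markers and 8 to 12 of 12 B cell markers well above background on each array. The arrays of 1 Gy neutrons at day 7 were the dimmest, with a median spot intensity of 9.52 to 16.8 and 40.2 to 50.3% of spots well above background, against 15.8 to 157 and 49.5 to 67.3% on the other 66 arrays. In that group 65.4% of the called genes were higher than in controls, but only 1.31% when the arrays were centred on spike-in controls, which moved the median gene by -2.28 on the log2 scale. Summed levels of 16 hepatocyte markers lay at 12.39 to 13.08 in the 4 Gy x-ray mice of day 1 and at 4.86 to 11.62 in the controls of that day. The other groups of day 1 had 6.79 to 13.39 (0.25 Gy neutrons), 5.74 to 12.41 (1 Gy neutrons) and 7.75 to 11.96 (1 Gy x-rays). X-ray arrays shared no scan day with control arrays. In whole blood, fewer cells of a type and less RNA per cell cannot be told apart.

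Against the controls of the day, 4 of the 60 combinations of a tested member and an irradiated group were called differentially expressed. The 1 Gy neutron mice had lower Tlr1 at day 1 and again at day 7, where their brightest Tlr7 probe was higher, and the 4 Gy x-ray mice had higher Tlr9 at day 1. Among the day 1 groups, 1 of 6 members was called for 1 Gy neutrons, where 17.5% of all tested genes were called, 1 of 6 for 4 Gy x-rays (35.1% of all genes) and none for 1 Gy x-rays (7.65%) or 0.25 Gy neutrons (0.00921%). Among the day 7 groups, 2 of 6 members were called for 1 Gy neutrons (38.4% of all genes), and none for 4 Gy x-rays (17.6%), 1 Gy x-rays (4%) or 0.25 Gy neutrons (0.0276%). The day 3 groups had no called member, with 1.17% of all genes called for 0.25 Gy neutrons and 2% for 1 Gy x-rays. Where limma called none, 1 or 2 members had an unadjusted p below 0.05, except in the 1 Gy x-ray mice of day 7, where 0 had. The median change of the tested members was 0.57 after 1 Gy neutrons at day 1, 0.39 in the 4 Gy x-ray mice of day 1 and 0.14 after 1 Gy neutrons at day 7, beside 0.05, 0.01 and 0.31 for all tested genes.

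**Figure D1:**
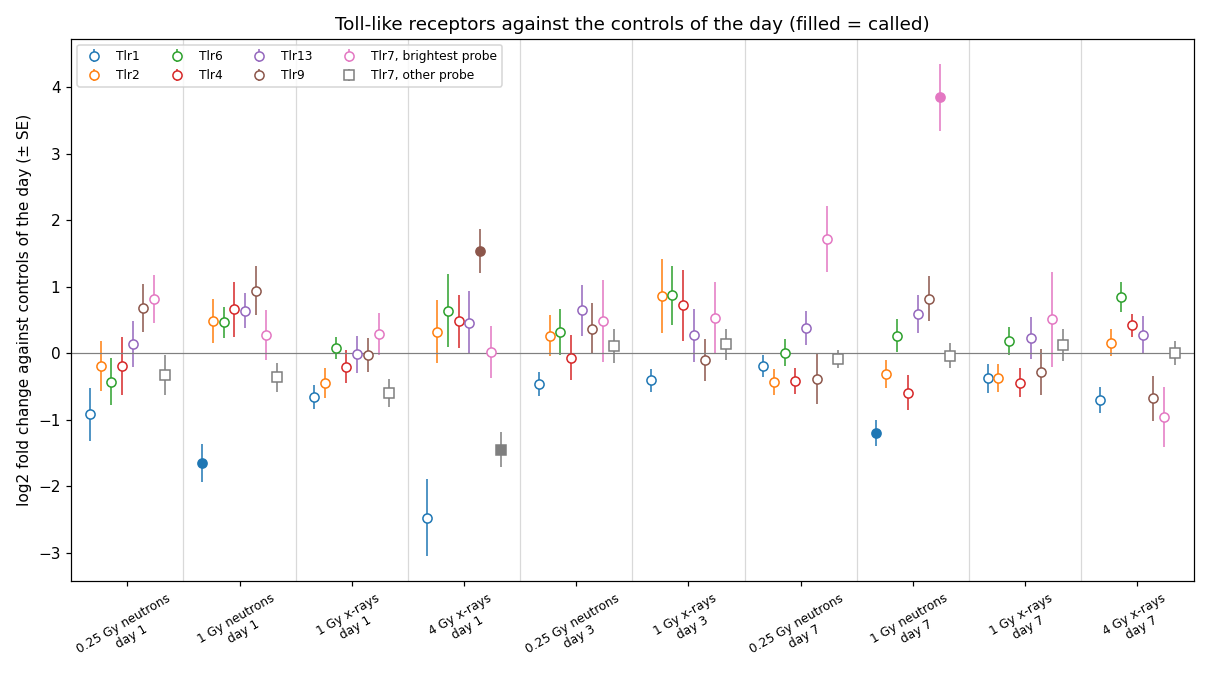
Log2 fold change (± SE from limma) of each detected Toll-like receptor against the controls of the same day, for the 10 irradiated groups, with filled symbols for called changes. The filled symbols are Tlr1 after 1 Gy neutrons at both days, Tlr9 and the second Tlr7 probe in 4 Gy x-ray mice of day 1, and the brightest Tlr7 probe after 1 Gy neutrons at day 7.

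Among the surface receptors, Tlr1, which pairs with Tlr2 to bind triacylated lipopeptides, was the member that fell. In the controls of day 1 its centred log2 levels were 1.76, 1.49, 1.64, 0.98 and 1.71. After 1 Gy neutrons at day 1 they ran from -1.11 to 0.49 with a median of 0.00 (n = 6). Every neutron-irradiated mouse lay below every control mouse, as was the case for 13.9% of all tested genes. The change was -1.65 ± 0.29 on the log2 scale (SE; 3.14-fold lower, adjusted p = 0.00141), and within the scan day that 4 irradiated and 5 control arrays shared it was -1.55. With spike-in centring it was -1.16 (adjusted p = 0.0216) and no longer called, nor was it called with replicate number as a block.

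At day 7 the 6 controls had Tlr1 levels from 0.65 to 1.35 with a median of 0.90, and the 6 mice given 1 Gy neutrons had levels from -0.85 to 0.27 with a median of -0.23. The groups again did not overlap, which held for 13.8% of all genes in this direction. Tlr1 fell by 1.2 ± 0.20 on the log2 scale (SE; 2.29-fold lower, adjusted p = 0.000173), and the single irradiated array scanned with the controls differed from them by -1.80. With normexp, another background correction, the change was -0.95 and was not called (adjusted p = 0.00918). The difference between the day 7 and day 1 effects of 1 Gy neutrons on Tlr1 was 0.46 ± 0.35 (adjusted p = 0.282) and was not called.

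In the 4 Gy x-ray mice of day 1 the Tlr1 levels were -1.51, -2.17, -1.76, 1.67 and -1.0. Replicate 4 stood among the controls, and the other 4 mice were all far below them. With all 5 mice the change was -2.47 ± 0.59 (adjusted p = 0.00312), but its unadjusted p was just above the limit of the call, and without replicate 4 it was -3.12 (adjusted p = 1.75e-05) and was called. At day 7 all 6 mice given 4 Gy x-rays had lower Tlr1 than all 6 controls, from -0.32 to 0.62, as did 8.76% of all genes, but the change of -0.70 was not called (adjusted p = 0.0127). In the 1 Gy x-ray mice of day 1 the change was -0.66 (adjusted p = 0.0234), and it was called at -0.80 (adjusted p = 0.00739) when control replicate 4 of day 1 was left out. After 0.25 Gy neutrons at day 1 it was -0.92 (adjusted p = 0.276), with levels from -1.21 to 1.2. At day 3 the changes were -0.46 for 0.25 Gy neutrons (adjusted p = 0.151) and -0.41 for 1 Gy x-rays (adjusted p = 0.197).

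Across the 13 groups the mean Tlr1 level was highest in the controls of day 1 (1.52 ± 0.32, SD) and lowest in the 4 Gy x-ray mice of day 1 (-0.95 ± 1.52). Put in order, neighbouring groups differed by less than the larger of their SDs at every step except that between the controls of day 3 (1.28) and the controls of day 7 (0.95). Among tested genes the patterns over the 13 group means most like that of Tlr1 were those of Atp10d (Pearson r = 0.987), Traf3ip3 (r = 0.985) and ENSMUST00000193950 (r = 0.985), where the points share arrays and centring. Beside the Tlr1 values after 1 Gy neutrons, 11 of 11 tested B cell markers were lower at day 1 (median -2.74), where 17.5% of all genes were called. At day 7 it was 9 of 11 (median -2.25), where 38.4% were called. Of 12 T cell markers, 5 were lower at day 1 (median -1.06) and 3 at day 7 (median -0.57), and none was higher. Of 12 reticulocyte markers, 3 were lower and 1 higher at day 1 (median -1.92), and 11 were higher at day 7. The summed B cell marker level was 4.13 to 6.05 after 1 Gy neutrons at day 1 against 7.55 to 8.33 in controls, and 5.61 to 6.02 against 7.91 to 8.19 at day 7. The part of these cell markers in the Tlr1 result was not tested.

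**Figure D2:**
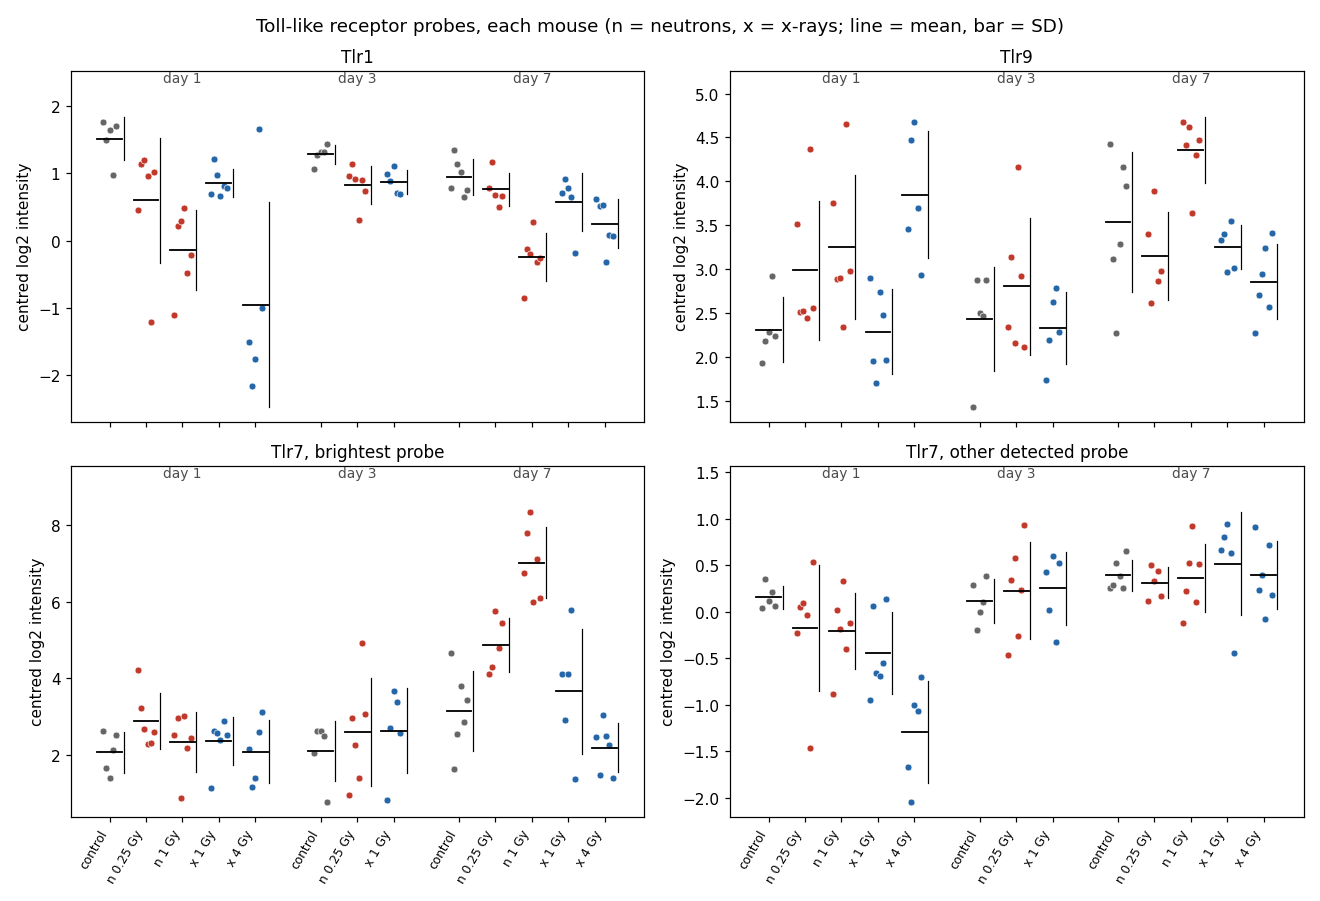
Centred log2 intensity of Tlr1, Tlr9 and the 2 detected Tlr7 probes in each of the 72 mice, by day and exposure; points are mice, horizontal lines group means and vertical bars the SD. Tlr1 lay lower after 1 Gy neutrons at both days, and the brightest Tlr7 probe was at 6.00 to 8.33 after 1 Gy neutrons at day 7 while the second probe stayed between -0.12 and 0.92.

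The other surface receptors were not called against controls in any of the 10 comparisons. Tlr2, the common partner of Tlr1 and Tlr6, had group means from -0.66 (1 Gy x-rays, day 1) to 0.63 (1 Gy x-rays, day 3), and its changes ran from -0.44 to 0.87 with adjusted p of 0.178 to 0.779. Tlr6, which joins Tlr2 in the recognition of diacylated lipopeptides, had means from -0.81 to 0.55. Its clearest difference was 0.85 ± 0.23 in the 4 Gy x-ray mice of day 7 (adjusted p = 0.0119), with overlapping groups. Tlr4, the lipopolysaccharide receptor, was well above background on 67 of 72 arrays but on only 2 of 6 arrays after 1 Gy neutrons at day 7.

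Tlr4 differed between exposures at day 7. Its levels after 4 Gy x-rays ran from -1.62 to -1.44 with a median of -1.55 (n = 6), and after 1 Gy x-rays they were -2.0, -2.13, -2.53, -2.63 and -2.70. All mice given the higher dose lay above all mice given the lower dose, as 6.34% of all genes did. The difference was 0.86 ± 0.17 (SE; adjusted p = 0.00468), and 0.80 within the scan day shared by 6 and 4 arrays, in a comparison where 9.54% of all genes were called. The call was lost in 4 of 15 alternative settings, among them normexp (0.53), all groups in one fit and slide as a block. The changes from controls were 0.42 after 4 Gy (adjusted p = 0.0726) and -0.44 after 1 Gy (adjusted p = 0.225). Against 4 Gy x-rays, 1 Gy neutrons gave a Tlr4 difference of -1.01 ± 0.23 (adjusted p = 0.00138), with overlapping groups, and it ran from -1.21 to -0.88 over the 12 fits with 1 array left out. The call was lost in 11 of these, all but that without replicate 4 of the neutron mice. Of 15 alternative settings, 9 kept the call, 5 lost it and 1 reversed the sign, with values from -3.253 to 0.402. Those that lost it include all groups in one fit, dim spots missing, and scan day or slide as a block. With normexp the difference was 0.40, so on these dim neutron spots, well above background in 2 of 6 mice, even its direction depended on the background correction.

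**Figure D3:**
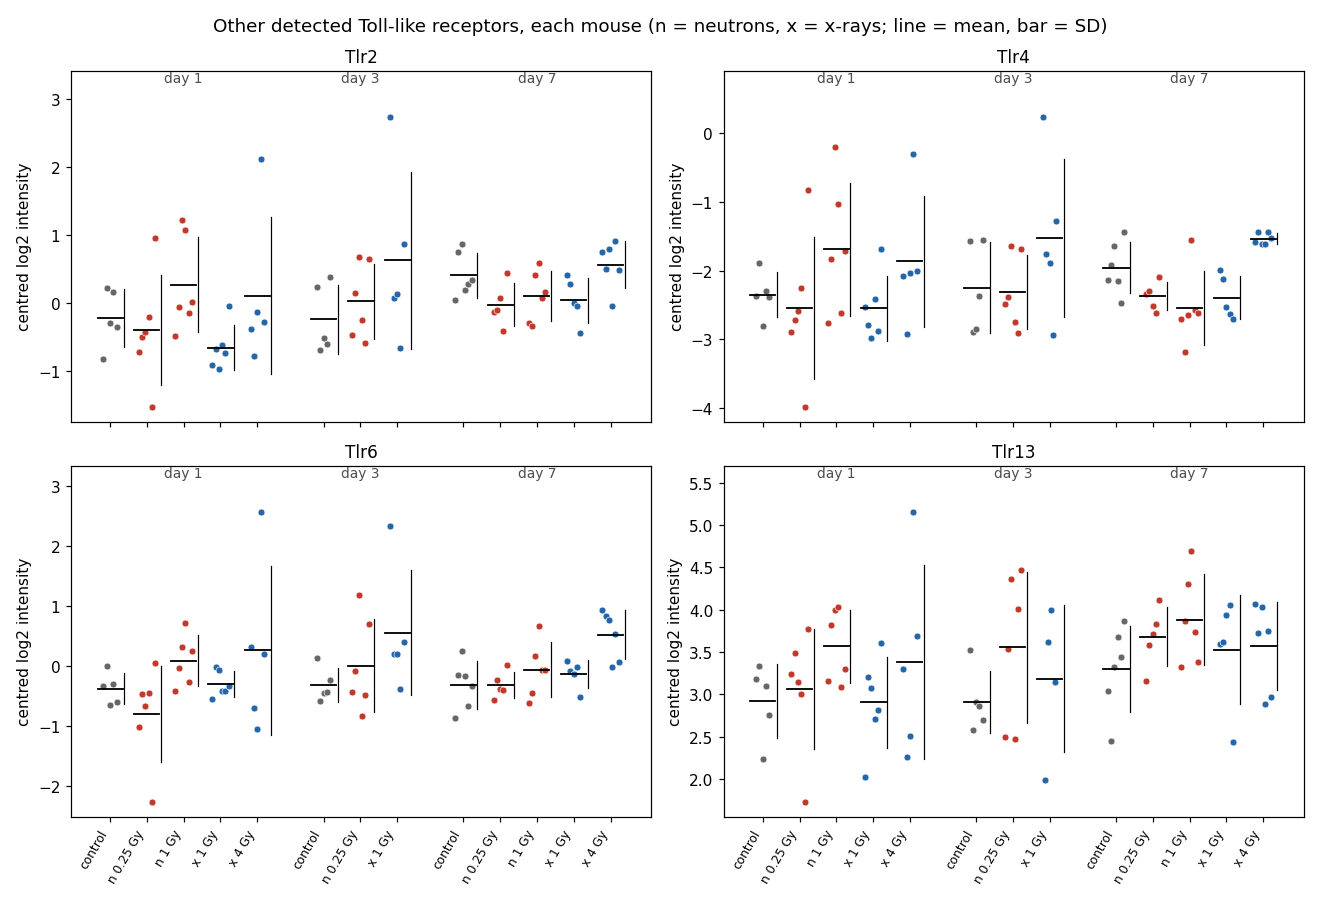
Centred log2 intensity of Tlr2, Tlr4, Tlr6 and Tlr13 in each mouse, by day and exposure; points are mice, horizontal lines group means and vertical bars the SD. Single mice stood high in several panels at once, replicate 4 of 4 Gy x-rays at day 1 (Tlr2 2.12, Tlr6 2.57, Tlr13 5.15) and replicate 1 of 1 Gy x-rays at day 3 (Tlr2 2.73, Tlr4 0.24, Tlr6 2.34).

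The endosomal receptor Tlr9, which senses DNA rich in unmethylated CpG, was higher in the 4 Gy x-ray mice of day 1. The control levels of day 1 were 1.93, 2.19, 2.28, 2.92 and 2.23, and those after 4 Gy x-rays were 3.46, 4.47, 4.68, 3.70 and 2.93. Every irradiated mouse exceeded every control, narrowly for the lowest of them, and 20.8% of all genes showed such a separation. The change was 1.54 ± 0.34 (SE; 2.91-fold higher, adjusted p = 0.00189). It ran from 1.33 to 1.77 when 1 array was left out, and the call was lost in 7 of these 10 fits, without control replicates 1, 2, 3 or 5 or irradiated replicates 2, 3 or 4 (adjusted p = 0.00341 to 0.00575). The call was also lost with 75th percentile scaling (1.27), normexp (1.03), quantile normalization (1.19), spike-in centring (1.69) and replicate number as a block. Beside it, 11 of 11 B cell markers were lower (median -4.30). Of 8 dendritic cell markers 1 was higher and 3 were lower, in a comparison where 35.1% of all genes were called. On all 5 arrays 16 of 16 hepatocyte markers were well above background. The same held on every array of 0.25 Gy neutrons and 1 Gy x-rays at day 1. Control arrays of that day had 13 to 16. The part of these markers in the Tlr9 value was not tested.

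At day 1 Tlr9 was also higher after 4 Gy than after 1 Gy x-rays, by 1.56 ± 0.34 (adjusted p = 0.00374; 17.6% of all genes called). The 6 mice given 1 Gy ran from 1.70 to 2.89 with a median of 2.22, so the groups did not overlap, as for 7.54% of all genes. The difference was 0.94 in the scan day that 1 and 4 arrays shared, and with scan day as a block it was no longer called (adjusted p = 0.365). This difference lost its call in 7 of 16 alternative settings, that block among them, and ran from 0.939 to 1.58 over all 16. It also lost its call without any 1 of 6 of the 11 arrays, namely replicates 2, 3 or 6 of 1 Gy and 2, 3 or 4 of 4 Gy, with a range of 1.35 to 1.79 over all 11 fits. After 1 Gy neutrons at day 1 the Tlr9 change was 0.94 with an adjusted p of 0.0508 and was not called.

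At day 7 Tlr9 no longer stood higher after 4 Gy x-rays, with levels from 2.28 to 3.41 (median 2.82) against 2.27 to 4.42 in controls (median 3.62). The day 7 effect minus the day 1 effect of 4 Gy x-rays was -2.22 ± 0.50 (adjusted p = 0.00142), called in a comparison where 22.4% of all genes were, and it was called in all 22 fits with 1 array left out but not with normexp, quantile normalization or spike-in centring. The control means themselves were 2.31 at day 1, 2.43 at day 3 and 3.54 at day 7. The rise of 1.23 between controls of day 1 and day 7 was not called (adjusted p = 0.0329), except without control replicate 3 of day 7 (1.48, adjusted p = 0.00569). No member was called between control groups by limma (5.18% of all genes between days 7 and 1, 2.34% between days 7 and 3, 0% between days 3 and 1). At an unadjusted p below 0.05, 4, 2 and 0 of the 6 members differed in these comparisons.

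After 1 Gy neutrons at day 7 Tlr9 ran from 3.64 to 4.67 with a median of 4.45. It exceeded the 1 Gy x-ray levels of 3.34, 3.40, 2.96, 3.54 and 3.01 by 1.11 ± 0.22 (adjusted p = 0.00184) and the 4 Gy x-ray levels by 1.5 ± 0.23 (adjusted p = 7.72e-05). The groups overlapped in neither case, as for 17.6% and 29.6% of all genes. Within shared scan days the first difference was 1.30 (1 array against 4) and 0.70 (4 against 1), and the second was 1.62 (1 against 6). With spike-in centring these differences were -0.04 and -0.74, and with normexp they were -0.33 and 0.22. Of 16 alternative settings, 8 kept the call of the first difference and 12 that of the second. With slide as a block the first was not called. Between 1 Gy neutrons and the controls of day 7 the change was 0.82 and not called (adjusted p = 0.0497), with -1.07 under spike-in centring and -0.57 under normexp. Probes with at least as many pyrimidines as that for Tlr9 had a median change of 0.52 in that comparison (590 probes), against -0.05 for all 19808 detected probes. In the 4 Gy x-ray mice of day 1 both medians were -0.11. For 1 Gy neutrons against 1 Gy x-rays at day 7 the 590 probes had a median of 0.776, with 40.2% over 2-fold higher. All detected probes had -0.015 and 16.6%. Against 4 Gy x-rays at day 7 the 590 probes had 1.105 and 52.2%, beside -0.114 and 21.9% for all. The part of base composition in the Tlr9 differences was not tested. Patterns over the group means most like that of Tlr9 were those of Sohlh2 (r = 0.971), Zfp771 (r = 0.967) and Rtkn (r = 0.963).

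Tlr7, the endosomal sensor of single-stranded RNA, gave the widest change of any member and the 2 detected probes gave different answers. On the brightest probe the controls of day 7 ran from 1.64 to 4.65 with a median of 3.15 (n = 6). After 1 Gy neutrons the 6 mice ran from 6.00 to 8.33 with a median of 6.93. All irradiated mice lay above all controls, as for 23.1% of all genes, and the change was 3.85 ± 0.51 (SE; 14.4-fold higher, adjusted p = 2.85e-05). It was 3.60 for the single irradiated array scanned on the day of the 6 controls, and with scan day as a block it was not called (adjusted p = 0.0138). With spike-in centring it was 1.96 (adjusted p = 0.00195) and missed the p threshold.

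On the second probe the same mice showed no such difference. Its control levels at day 7 ran from 0.25 to 0.65 with a median of 0.34, and those after 1 Gy neutrons from -0.12 to 0.92 with a median of 0.37. The groups overlapped throughout, and the difference was -0.03 ± 0.19 (adjusted p = 0.894). The remaining Tlr7 probe was not above background on any array. The Pearson correlation of the 2 detected probes over the 13 group means was 0.39.

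The repeat at the start of the brightest Tlr7 probe was looked for in all detected probes as 5 TC units in a row (TCTCTCTCTC) on the printed strand. It was held by 31 of 19808 detected probes, Tlr7 included. After 1 Gy neutrons at day 7, 29 of the 31 (93.5%) were over 2-fold higher than in controls, with a median change of 3.85, against 20.2% of all detected probes with a median of -0.05. After 0.25 Gy neutrons at day 7 the share was 74.2% (median 1.40) against 2.55%, and in the 1 Gy x-ray mice of day 7 it was 48.4% (median 0.99) against 4.29%. In the 4 Gy x-ray mice of day 7 none of the 31 was over 2-fold higher, and their median was -0.28. The brightest Tlr7 probe itself changed at day 7 by 3.85 after 1 Gy and 1.72 after 0.25 Gy neutrons. It changed by 0.51 after 1 Gy and -0.96 after 4 Gy x-rays. Without Tlr7 the other 30 repeat probes had day 7 medians of 3.828 after 1 Gy and 1.393 after 0.25 Gy neutrons. After 1 Gy and 4 Gy x-rays these medians were 1.001 and -0.239. The brightest Tlr7 probe thus lay above the median of the others after neutrons, barely so at 1 Gy, and below it after x-rays. The second probe, which lacks the repeat, changed by -0.03 after 1 Gy neutrons at day 7. The 3 genes most like the brightest probe over the 13 group means were Wfdc13, Erich5 and 4733401D01Rik, each at r = 0.995. Of these, Erich5 and 4733401D01Rik also have a probe among the 31 that hold the repeat. Whether the repeat has a part in the Tlr7 value was not tested.

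**Figure D4:**
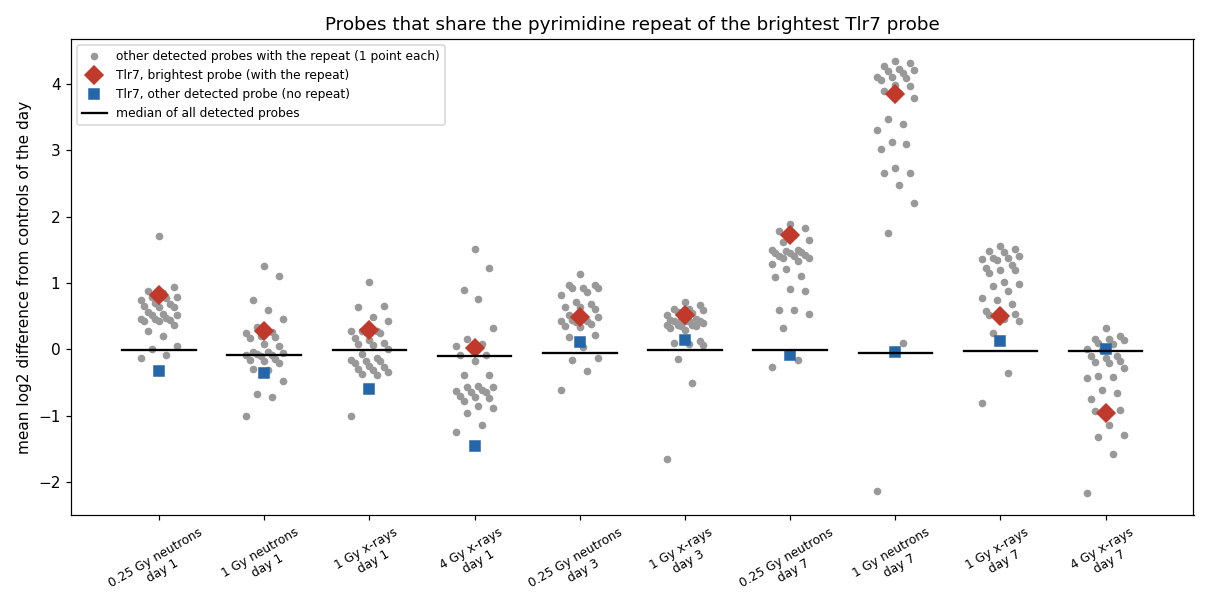
Mean log2 difference from the controls of the day for the 31 detected probes that hold the pyrimidine repeat, in the 10 irradiated groups; grey points are single probes, the diamond is the brightest Tlr7 probe, the square the second Tlr7 probe and the black line the median of all detected probes. At day 7 after 1 Gy neutrons the repeat probes centre on 3.85, with the second Tlr7 probe at -0.03.

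Between exposures at day 7, the brightest Tlr7 probe was higher after 1 Gy neutrons than after 1 Gy x-rays by 3.34 ± 0.67 (adjusted p = 0.002), than after 4 Gy x-rays by 4.81 ± 0.41 (adjusted p = 7.41e-07) and than after 0.25 Gy neutrons by 2.13 ± 0.45 (adjusted p = 0.00152). The last of these lost its call without replicates 1, 2 or 4 of 0.25 Gy or replicate 2 of 1 Gy, where it ran from 1.94 to 2.11. Of 16 alternative settings, 7 lost the call against 1 Gy x-rays, and the second probe reversed its sign. Against 0.25 Gy neutrons 7 of 16 lost the call, and against 4 Gy x-rays all but the second probe kept it. The groups did not overlap in the comparison of neutron doses, as for 22.9% of all genes, nor in the comparisons with x-rays (17.6% and 29.6%). Within shared scan days the differences were 2.94 (1 array against 4) and 1.52 (4 against 1) from 1 Gy x-rays, 3.88 (1 against 6) from 4 Gy x-rays and 1.88 (1 against 5) from 0.25 Gy neutrons. On the second probe the 3 differences were -0.16, -0.03 and 0.05, none of them called. The levels of the brightest probe after 0.25 Gy neutrons were 4.13, 4.29, 5.75, 4.80 and 5.43, and the change of 1.72 from controls was not called (adjusted p = 0.0822). The effect of 1 Gy neutrons rose by 3.57 between day 1 and day 7 on the brightest probe (adjusted p = 0.000148; 28.7% of all genes called) and by 0.33 on the second (adjusted p = 0.329). With spike-in centring the former was 1.19 and not called, as it was not with normexp or with scan day as a block. The day difference was called for no member in the 0.25 Gy neutron and 1 Gy x-ray groups (1.32% and 8.68% of all genes), where 0 members had an unadjusted p below 0.05 in limma. In the order of the 13 group means the brightest probe after 1 Gy neutrons at day 7, at 7.01, stood apart by 2.13, more than the larger SD of 0.93, and no other neighbouring groups did.

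The second Tlr7 probe changed instead in the 4 Gy x-ray mice of day 1. Control levels were 0.04, 0.35, 0.11, 0.21 and 0.06, and those after 4 Gy x-rays were -1.67, -2.05, -1.0, -1.07 and -0.70. All irradiated mice were lower, as for 23.5% of all genes in this direction, by a mean of -1.45 ± 0.26 (adjusted p = 0.000578), in a comparison where 35.1% of all genes were called. On the brightest probe that comparison gave means of 2.10 in irradiated and 2.07 in control mice, within the spread of each group. The day 7 effect of 4 Gy x-rays exceeded the day 1 effect by 1.45 ± 0.30 on the second probe (adjusted p = 0.000781). In that comparison 22.4% of all genes were called.

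Tlr13, an endosomal receptor for bacterial ribosomal RNA, was not called in any comparison. Its group means ran from 2.90 (1 Gy x-rays, day 1) to 3.88 (1 Gy neutrons, day 7), and its widest changes were 0.65 after 0.25 Gy neutrons at day 3 (adjusted p = 0.314) and 0.64 after 1 Gy neutrons at day 1 (adjusted p = 0.0592). For 1 Gy x-rays at day 3 its value rests on 4 of 5 mice. No neighbouring group means of Tlr13, Tlr2, Tlr4, Tlr6 or Tlr9 differed by more than the larger SD. The genes most like Tlr13 over the group means were Sirpb1b (r = 0.918), Mxd1 (r = 0.906) and Sirpb1a (r = 0.899), those most like Tlr2 were Mefv (r = 0.932), Fgr (r = 0.885) and Metrnl (r = 0.877), and those most like Tlr4 were Nmral1 (r = 0.912), Metrnl (r = 0.875) and B4galt6 (r = 0.872). Among members, Tlr2 and Tlr4 correlated at 0.828, Tlr4 and Tlr6 at 0.796 and Tlr2 and Tlr6 at 0.761 over the same 13 means.

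The probes named for the remaining receptors gave bounds only, while a probe without a gene name that the files describe as a Tlr8 mRNA was well above background on 66 of 72 arrays. Tlr3, the sensor of double-stranded RNA, was well above background on 8 of 72 arrays, Tlr5, the flagellin receptor, on 14 and Tlr8, a second receptor for single-stranded RNA, on 8. Tlr3 was above background in 4 of 6 mice in the 4 Gy x-ray mice of day 7 and in 0 of 6 controls, which allowed a change of at least 1.03-fold. Tlr5 was above it in 4 of 6 mice after 1 Gy neutrons at day 1, 3 of 5 in the 4 Gy x-ray mice of day 1 and 3 of 6 in the 4 Gy x-ray mice of day 7, against 1 of 5 and 0 of 6 controls. Tlr8 was above it in 3 of 6 mice in the 4 Gy x-ray mice of day 7 and in 2 of 6 controls.

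Over the 8 comparisons between exposures of a day, 10 combinations of a member and a comparison were called, which include the Tlr4, Tlr7 and Tlr9 differences given above. The count was 3 with scan day as a block, 2 with slide as a block and 2 with normexp, and the Tlr7 and Tlr9 differences between 1 Gy neutrons and 4 Gy x-rays at day 7 were those called with slide as a block. Called members were 2 of 6 for 1 Gy neutrons against 1 Gy x-rays at day 7 (23.0% of all genes called), 3 of 6 for 1 Gy neutrons against 4 Gy x-rays at day 7 (41.9%) and 3 of 6 for 1 against 0.25 Gy neutrons at day 7 (31.1%). The last include Tlr9, higher by 1.21 ± 0.26 (adjusted p = 0.00162) with overlapping groups and uncalled in 7 of 11 fits with 1 array left out, and Tlr1. The Tlr9 call was also lost with 75th percentile scaling (1.07), quantile normalization (0.73), normexp (0.63), spike-in centring (0.31), dim spots missing (0.76), all groups in one fit and scan day or slide as a block. Tlr1 was lower after 1 than after 0.25 Gy neutrons at day 7, by -1.01 ± 0.20 (adjusted p = 0.0012), without overlap (12.2% of all genes in this direction) and at -1.61 within the scan day of 1 and 5 arrays. Without replicate 2 of 0.25 Gy this was -0.91 and not called (adjusted p = 0.00402). Nor was it called in 4 of 16 alternative settings, among them normexp (-0.35), all groups in one fit and slide as a block. At day 1 no member was called for 1 Gy neutrons against 1 Gy x-rays (9.05% of all genes), 4 Gy x-rays (0.0552%) or 0.25 Gy neutrons (1.35%), and 4, 0 and 0 members had an unadjusted p below 0.05 in limma. Tlr1 differed between 1 Gy neutrons and 1 Gy x-rays by -0.99 at day 1 (adjusted p = 0.0164; no overlap, as for 9.94% of all genes) and by -0.82 at day 7 (adjusted p = 0.0145). It was called without replicate 4 of the neutron mice at day 1 (-1.11, adjusted p = 0.0102) and without replicate 5 of the x-ray mice at day 7 (-1.01, adjusted p = 0.00396).

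Of 76 other genes of Toll-like receptor signalling, 42 were tested. At day 1, 1 Gy neutrons had 2 of them higher and 10 lower than controls (28.6% called, beside 17.5% of all genes), 1 Gy x-rays 2 higher and 3 lower (11.9% beside 7.65%), and 4 Gy x-rays 4 higher and 14 lower (42.9% beside 35.1%). At day 7, 1 Gy neutrons had 7 higher and 8 lower (35.7% beside 38.4%), 1 Gy x-rays 1 higher and 0 lower (2.38% beside 4%), and 4 Gy x-rays 5 higher and 6 lower (26.2% beside 17.6%). The balance of directions depended on the centring, since with spike-in centring 1 Gy neutrons had 8 higher and 0 lower at day 1 and 0 higher and 31 lower at day 7. That centring gave 1 higher and 1 lower in the 1 Gy x-ray mice of day 1 and 4 higher and 10 lower in the 4 Gy x-ray mice of that day. At day 7 it gave 0 higher and 5 lower in the 1 Gy x-ray mice and 5 higher and 1 lower in the 4 Gy x-ray mice. With normexp, 34 of the 76 genes were tested. There 1 Gy neutrons had 0 higher and 0 lower at day 1, and 0 higher and 5 lower at day 7. The 1 Gy x-ray mice had none called at either day. The 4 Gy x-ray mice had 2 higher and 5 lower at day 1, and 1 higher and 0 lower at day 7. The percentages of all genes given above belong to the main fits. No share of all genes was set beside the spike-in and normexp counts, so these counts do not single out the list. In the main fits none was called on any day for 0.25 Gy neutrons, nor at day 3 for 1 Gy x-rays. The median change of the 42 genes at day 1 was -0.04 for 1 Gy neutrons, -0.26 for 1 Gy x-rays and -0.39 for 4 Gy x-rays, beside 0.05, -0.01 and 0.01 for all tested genes. At day 7 it was -0.25, -0.12 and -0.15 in that order, beside 0.31, 0.04 and -0.04.

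By role, 2 of 9 accessory receptors and chaperones were higher and 4 lower in the 4 Gy x-ray mice of day 1, where 35.1% of all genes were called. Lbp, the plasma protein that hands lipopolysaccharide to Cd14, showed the largest rise of the list there (4.30 ± 0.71, adjusted p = 0.000369), after 1 Gy neutrons at day 1 (3.58 ± 0.80, adjusted p = 0.00473, overlapping groups) and in the 4 Gy x-ray mice of day 7 (3.22 ± 0.55, adjusted p = 0.000752, overlapping groups). Lbp is made mainly by hepatocytes, whose summed marker level is given above for day 1 and was 4.17 to 11.59 in the 4 Gy x-ray mice of day 7 against 4.18 to 7.02 in controls. The part of these transcripts in the Lbp values was not tested. The Lbp call after 1 Gy neutrons was lost in 8 of 11 fits with 1 array left out (3.13 to 4.24). It was also lost in 4 of 15 alternative settings, among them normexp (1.89), dim spots missing and scan day as a block. Cd36, a scavenger receptor that assists Tlr2 and Tlr6, fell most after 4 Gy x-rays (-2.14 ± 0.32, adjusted p = 0.000192) and 1 Gy x-rays at day 1 (-1.77 ± 0.31, adjusted p = 0.00388). It rose most after 1 Gy neutrons at day 7 (1.81 ± 0.27, adjusted p = 8.08e-05), where spike-in centring gave -0.08. Rftn1, a lipid raft protein, fell most after 1 Gy neutrons at day 1 (-1.32 ± 0.20, adjusted p = 0.000743). Its call was lost in 3 of 15 alternative settings, over which the change ran from -1.485 to -0.831. No listed gene was called lower there with normexp or spike-in centring. Unc93b1, the chaperone that brings endosomal receptors to their compartment, was chosen after its values were seen and fell by 1.04 after 1 Gy neutrons at day 7 (adjusted p = 0.000392).

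Of 8 kinases, ubiquitin ligases and their direct partners, 1 was higher and 4 were lower in the 4 Gy x-ray mice of day 1 (35.1% of all genes called). After 1 Gy neutrons at day 7, 5 were higher and 1 was lower (38.4% of all genes called), and the difference between these groups was not tested. The 5 were Irak1 (1.5), Irak2 (1.10), Tab2 (1.53), Tab3 (1.66) and Ikbkg (1.62), and the 1 was Traf3 (-0.85), named after their values were seen. With spike-in centring the 5 ran from -0.79 to -0.23 and none was called higher, and with normexp they ran from -0.32 to 0.88. Tab2, an adaptor of the Tak1 kinase, was the only listed gene called in the 1 Gy x-ray mice of day 7 (0.86 ± 0.17, adjusted p = 0.0125). That call was lost without replicates 2 or 4 of these mice. It was also lost in 4 of 16 alternative settings, among them spike-in centring (0.12), normexp and no detection filter. Beside these day 7 values, 11 of 12 reticulocyte markers were higher after 1 Gy neutrons (median 2.82) and 4 of 9 neutrophil markers were higher (median 1.28 for the 9). Their part in these values was not tested.

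Of 7 transcription factors, 3 were lower after 1 Gy neutrons, 3 in the 4 Gy x-ray mice and 1 in the 1 Gy x-ray mice of day 1 (17.5%, 35.1% and 7.65% of all genes called). At day 7, 1 Gy neutrons and 4 Gy x-rays each had 2 lower and 1 higher (38.4% and 17.6%). Nfkb2, the precursor of the p52 subunit of NF-kappaB, was chosen after its values were seen and was lower in 5 comparisons, from -0.82 in the 4 Gy x-ray mice of day 7 to -1.86 in the 4 Gy x-ray mice of day 1. With normexp no listed gene was called lower after 1 Gy neutrons or 1 Gy x-rays at day 1. The same held for 4 Gy x-rays at day 7, and with spike-in centring for 1 Gy neutrons at day 1. Of 9 inhibitors, 3 were lower after 1 Gy neutrons at each day, 2 were lower in the 4 Gy x-ray mice of day 1 and 1 in those of day 7, and 1 was higher in the 1 Gy x-ray mice of day 1. Nfkbie, an inhibitor of NF-kappaB, showed the largest fall of the list after 1 Gy neutrons at day 7 (-1.11 ± 0.17, adjusted p = 0.000101). Among 7 induced cytokines and enzymes, the chemokine Ccl4 rose most in the 1 Gy x-ray mice of day 1 (1.04 ± 0.23, adjusted p = 0.011). Its call was lost in 8 of 11 fits with 1 array left out (0.93 to 1.18) and with 75th percentile scaling, normexp, no detection filter, all groups in one fit, or scan day or slide as a block. Nos2, the inducible nitric oxide synthase, fell most in the 4 Gy x-ray mice of day 7 (-1.42 ± 0.22, adjusted p = 0.000394). The single tested adaptor and the single other receptor, Tlr12, were not called against controls in any of the 10 comparisons.

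**Figure D5:**
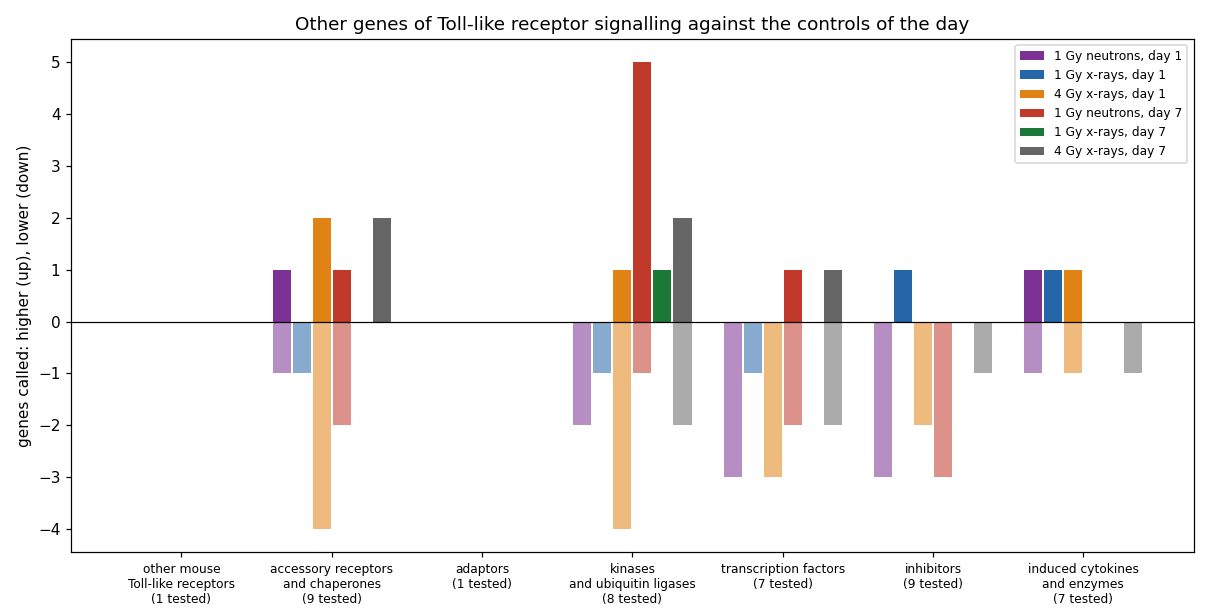
Numbers of other Toll-like receptor signalling genes called higher (above 0) or lower (below 0, paler bars) than the controls of the day, by role, for the 6 irradiated groups with any call. Kinases and ubiquitin ligases after 1 Gy neutrons at day 7 had 5 genes higher and 1 lower of 8 tested, and in 4 Gy x-ray mice of day 1 they had 1 higher and 4 lower.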

How the data were processed

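Each array file holds background-corrected spot intensities as deposited, which the authors extracted with Agilent Feature Extraction (12.0.2 per the submitters' processing notes) and did not normalize between arrays. The series value table holds log2 values deposited by the authors; most of its columns follow the array of another sample, so it was not used. Which labelling is right was not tested; groups here follow the labels of the array files, whose own names state the same exposure and day for 72 of 72 arrays. Control spots, non-uniform spots and outlier spots were left out, spots of a probe were averaged, and arrays were centred on the median of the detected probes. As in the study's methods, probes flagged on 25% or more of the arrays of days 1 and 7, or varying under 1.5-fold on over 80% of them, were removed. The brightest probe stood for a gene. Names came by accession from RefSeq (GRCm38.p6) for 28330 probes. Tests were 2-sided and used lmFit and eBayes of limma 3.58.1 in R 4.3.3, with adjusted p by Benjamini-Hochberg over all 10863 genes, after testing on simulated data. Each array is 1 mouse, and precision is limited by how many there are. Of the signalling list, the called genes with the largest rise and fall in each comparison were named, and for each tested member the 3 genes of most similar pattern. The members and lists were chosen with earlier results of these data known. Alternatives covered scaling, background correction, filters, probe choice, test, replicate, slide and scan-day blocks, and leaving out each array.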

Additional observations from a re-analysis of the deposited data

Results flagged for a closer look

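Chance alone would set about 1 in 20 groups apart by the gap test applied to the highest or lowest mouse of a group; here it did so in 10 of 104 groups of member values. A single mouse lay low for Tlr1 after 0.25 Gy neutrons at day 1 (replicate 5, -1.21) and in the 1 Gy x-ray mice of day 7 (replicate 5, -0.18). The latter mouse was also lowest for Tlr13 (2.43) and for the second Tlr7 probe (-0.45). A single mouse lay high for Tlr2 in the 4 Gy x-ray mice of day 1 (replicate 4, 2.12), for Tlr6 in the 1 Gy x-ray mice of day 3 (replicate 1, 2.34) and for Tlr4 after 1 Gy neutrons at day 7 (replicate 4, -1.55). That last mouse was lowest for Tlr9 in its group (3.64). Low mice were also seen for the brightest Tlr7 probe in the 1 Gy x-ray mice of day 1 (replicate 1, 1.14) and for Tlr9 in the controls of day 3 (replicate 1, 1.43). Among the tested members, the effect of an exposure differed between days by limma in 2 cases. These were Tlr7 after 1 Gy neutrons (day 7 minus day 1, 3.57 on the brightest probe) and Tlr9 after 4 Gy x-rays (-2.22). The added second Tlr7 probe, which was not among them, differed between days after 4 Gy x-rays, as given above.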

How the results depend on the processing

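The 4 calls against controls became 2 with normexp background correction and 9 with spike-in centring (2 of them Tlr6, which passed the filters there), and 3 to 5 with 1 array left out. The 10 calls between exposures became 2 with normexp, 5 with quantile normalization, 6 with all groups in one fit, 3 with scan day and 2 with slide as a block, and 7 to 11 with 1 array left out. The 2 differences between days became 0 with normexp, 1 with quantile normalization, 1 with scan day as a block and 6 with spike-in centring (1 Tlr6), and 2 to 3 with 1 array left out. Between control groups, 0 calls became 8 with spike-in centring (2 Tlr6), and 0 to 1 with 1 array left out. Shares of all genes called under these settings were not set beside the member counts. Among called members and signalling genes named by the rule, values that reversed were Tlr9 for 1 Gy neutrons at day 7 against 1 Gy x-rays (normexp -0.33, spike-in -0.042) and against 4 Gy x-rays (spike-in -0.74), Tlr4 for 1 Gy neutrons against 4 Gy x-rays at day 7 (normexp 0.40), and Cd36 after 1 Gy neutrons at day 7 (spike-in -0.08); the reversals of 5 kinase-group genes and of the uncalled Tlr9 change are given above. The second Tlr7 probe in place of the brightest, an alternative chosen after seeing the data, gave -0.033 for 1 Gy neutrons at day 7 against controls, -0.16 against 1 Gy x-rays and -0.033 against 4 Gy x-rays. The causes were not tested. Dim spots limit Tlr3, Tlr4, Tlr5 and Tlr8.

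Replicate numbers were not treated as pairs, since in 0 of 21 comparisons did all same-numbered pairs correlate above 0.1. That rule cannot show partial pairing. Pairs above 0.1 ran from 0 of 6 (1 Gy neutrons against controls, day 7) to 5 of 6 (1 against 0.25 Gy neutrons, day 1). With the replicate block, 2 calls against controls (Tlr1 and Tlr7 after 1 Gy neutrons at day 7, but neither Tlr1 after 1 Gy neutrons nor Tlr9 in the 4 Gy x-ray mice of day 1) and 4 between exposures were made, the calls between control groups (0) and between days (2) being unmoved.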

Other observations

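A probe without a gene name in the files is described there as a Tlr8 mRNA, and it was looked at after its values were seen. It was well above background on 66 of 72 arrays and was not called against controls in any of the 10 comparisons. Its widest change was -1.23 in the 1 Gy x-ray mice of day 1 (limma, adjusted p = 0.0154), and the controls of day 7 exceeded those of day 1 by 1.31 (adjusted p = 0.0234). The probe that carries the name Tlr8 was well above background on 8 arrays.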
